A study of Mus musculus with 26 samples.

Results

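The genes described here are 9 that myelinating Schwann cells, the glia of peripheral nerves, use to build and switch on myelin: *Mbp*, *Pmp22*, *Prx*, *Mag*, *Pllp*, *Ncmap*, *Drp2*, *Egr2* and *Pou3f1*. They were taken as a named list, with no threshold on any measured value, though earlier results of these data were known when it was chosen. All 9 were found among the 55401 genes of both deposited count tables and counted in all 26 libraries. In a peripheral nerve, a myelinating Schwann cell wraps 1 stretch of a large axon in many turns of its own membrane. The transcription factor EGR2 acts with SOX10 to turn on the myelin genes, and POU3F1 acts before it, in the cell that is about to myelinate. Dorsal root ganglia, where the cell bodies of sensory neurons lie, hold such Schwann cells around the axons that run through them, beside satellite glia around the cell bodies.

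Messenger RNA was sequenced from lumbar dorsal root ganglia of mice in which the gene of the aryl hydrocarbon receptor, *Ahr*, was to be deleted in neurons, to study how this receptor bears on axon regrowth after injury. Conditional knockout (cKO) mice carried Ahr f/f Thy1-CRE(ERT2/EYFP), a tamoxifen-inducible recombinase under the *Thy1* promoter, which is used to express transgenes in neurons. The naive and injured groups held 3 mice of each genotype, all given tamoxifen at 28 weeks of age (100 mg/kg on 5 days). Their controls had no Cre and were Ahr fl/+ in replicates 1 and 2 and Ahr fl/fl in replicate 3. Naive ganglia were taken 5 weeks after tamoxifen, and injured ganglia 1 day after a sciatic nerve crush made at that time. The sham groups came from 2 control mice, Ahr f/+ in mouse 1 and Ahr fl/fl in mouse 2, and from 2 cKO mice. In the sham mice both the ipsilateral and the contralateral ganglia were sequenced 1 day after sham surgery. The neuron groups were semi-purified neurons 24 hours after seeding, from 3 Ahr fl/fl controls and 3 cKO. A tamoxifen treatment or age of the sham and neuron groups is not given in the sources used here.

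Library totals were 20169388 to 23540375 counts in naive and injured ganglia, 39306414 to 58751270 in sham ganglia and 25299938 to 88180611 in cultured neurons. *Thy1*, whose promoter drives the Cre, was higher in every cKO library than in every control library of the same group set. *Ahr* itself was not lower in cKO ganglia (18.0 to 22.8 counts per 1000000 counts of the library, CPM, in naive controls and 21.4 to 26.8 in naive cKO). In cultured neurons it had 44.8 to 54.9 CPM in controls and 44.4 to 57.0 CPM in cKO (log2 difference -0.05, adjusted p = 0.917, edgeR), and it was called in none of the 5 genotype comparisons. Since the labels do not say which part of the gene was floxed, its total count checks no genotype. Control replicate 3 and cKO replicate 2 of the injured groups had sex-linked transcripts that differed from their labelled sex. By transcripts, the naive mice and the neuron libraries were all female, the sham mice all male, and the injured cKO group held 2 males. The defining markers of oligodendrocytes, which use *Mbp*, *Mag* and *Pllp* in the central nervous system, were low. The 8 markers summed to 5.14 to 13.1 CPM over the 20 ganglion libraries, where *Mag* alone had 10.3 to 22.8 CPM. *Olig2* had 0 counts in 17 and *Opalin* in 16 of all 26 libraries, while 4 of the 8 passed the filter on low counts in naive and injured ganglia. The part of oligodendrocyte transcript in *Mag* was not tested.

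Positions are those of mouse genome build GRCm38. Periaxin, the scaffold that ties DRP2 to the outer Schwann cell membrane, is encoded by *Prx* (chr7:27499324-27520214, plus strand), and *Egr2* lies at chr10:67535475-67542188 on the plus strand. Promoter sequences (RefSeq, build GRCm38.p6, 250 bases before to 50 after a start) were at hand for 6 of the 9 genes, with 16 starts. The letters searched, on both strands, were those of factors known to drive these genes. The POU octamer ATGCAAAT was in promoters of 2 of the 6 genes, *Prx* and *Egr2*, and in 1.97% of all genes with a promoter (1.74% of all 32851 promoters). The *Egr2* octamer is 1 site that lies in the windows of 3 overlapping starts. The 2 stretches are shown since they hold that octamer, in capitals, and since *Pou3f1* and both genes are among the members. The *Prx* stretch, chr7:27499074-27499134 on the plus strand, lies before the gene and starts 250 bases before its RefSeq start. The *Egr2* stretch, chr10:67537706-67537785 on the plus strand, lies in an intron of the longer transcripts and before the start of the shorter ones, and it overlaps no exon.
Prx: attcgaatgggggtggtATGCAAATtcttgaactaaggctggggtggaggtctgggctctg
Egr2: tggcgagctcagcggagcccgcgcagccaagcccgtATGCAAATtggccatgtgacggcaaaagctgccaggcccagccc
The EGR letters GTGGGNG were in promoters of 4 of the 6 genes (*Egr2*, *Mag*, *Ncmap* and *Prx*), and in 34.3% of all genes with a promoter. The longer EGR letters GCGTGGGCG were in promoters of none of the 6, against 0.707% of genes. The SOX letters ACAAAG were in promoters of 1 of the 6 genes, *Mag*, and in 21.0% of all genes with a promoter, and AACAAT in none, against 12.2% of genes. A match of letters is a description of the sequence and shows no binding.

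All 9 genes are protein-coding. Of the structural genes, *Mbp* (chr18:82475146-82585637, plus strand) encodes myelin basic protein, which seals the cytoplasmic faces of compact myelin. *Pmp22* (chr11:63128982-63159547, plus strand) encodes a tetraspan protein of compact myelin whose dosage causes hereditary neuropathy. *Pllp* (chr8:94674894-94696278, minus strand) encodes the membrane protein plasmolipin, and *Ncmap* (chr4:135369576-135398227, minus strand) a protein of non-compact myelin. *Mag* (chr7:30899176-30914873, minus strand) encodes the adhesion molecule of the myelin membrane that faces the axon. *Drp2* (chrX:134404551-134456573, plus strand) encodes the dystrophin-related protein to which periaxin binds. *Pou3f1* (chr4:124656807-124660655, plus strand) encodes the POU-domain factor of promyelinating cells. *Pllp* shares its position with the antisense gene *Gm45767*, whose counts came to 72.6% of those of *Pllp* over all libraries and to 67.2% to 84.6% by group. The 2 genes lie on opposite strands, but the strand setting of the counting is not given, so they may share reads where they overlap. The level of *Pllp* is therefore uncertain. For the other members, no overlapping gene had more than 2.95% of the member's counts.

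Levels were expressed as CPM, with library sizes adjusted by TMM over all 26 libraries, and a level set across the 2 deposited tables is a description. Over the 20 ganglion libraries the highest level was 1.63 times the lowest for *Pmp22* and 2.01 to 2.32 times for *Mbp*, *Prx*, *Mag*, *Pllp*, *Ncmap* and *Drp2*. For the regulators it was 3.19 times for *Pou3f1* and 5.10 times for *Egr2*. *Mbp* ranged from 959.5 CPM to 1995 CPM with a median of 1331 CPM, *Prx* from 295.8 to 686.5 CPM (median 446.5) and *Drp2* from 190.6 to 432.9 CPM (median 307.8). When the group means of each gene were put in order, 61 of 62 neighbouring pairs of ganglion groups had overlapping libraries. The exception was *Ncmap*, whose level in ipsilateral sham control ganglia (44.6 and 66.0 CPM) lay above that in ipsilateral sham cKO ganglia (41.2 and 41.1 CPM). For the other 8 genes, no neighbours in the order of ganglion groups differed beyond their spread. Neighbours in such an order have the nearest means, so their overlap does not cover groups further apart. *Drp2*, for example, had 316.3 to 375.5 CPM in injured controls and 218.8 to 226.1 CPM in ipsilateral sham cKO ganglia. These 2 groups stand in separate deposited tables. The cultured neurons stood below all ganglion groups for 7 members, at the top for *Egr2* and, in cKO neurons, at the bottom for *Pou3f1*.

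**Figure D1:**
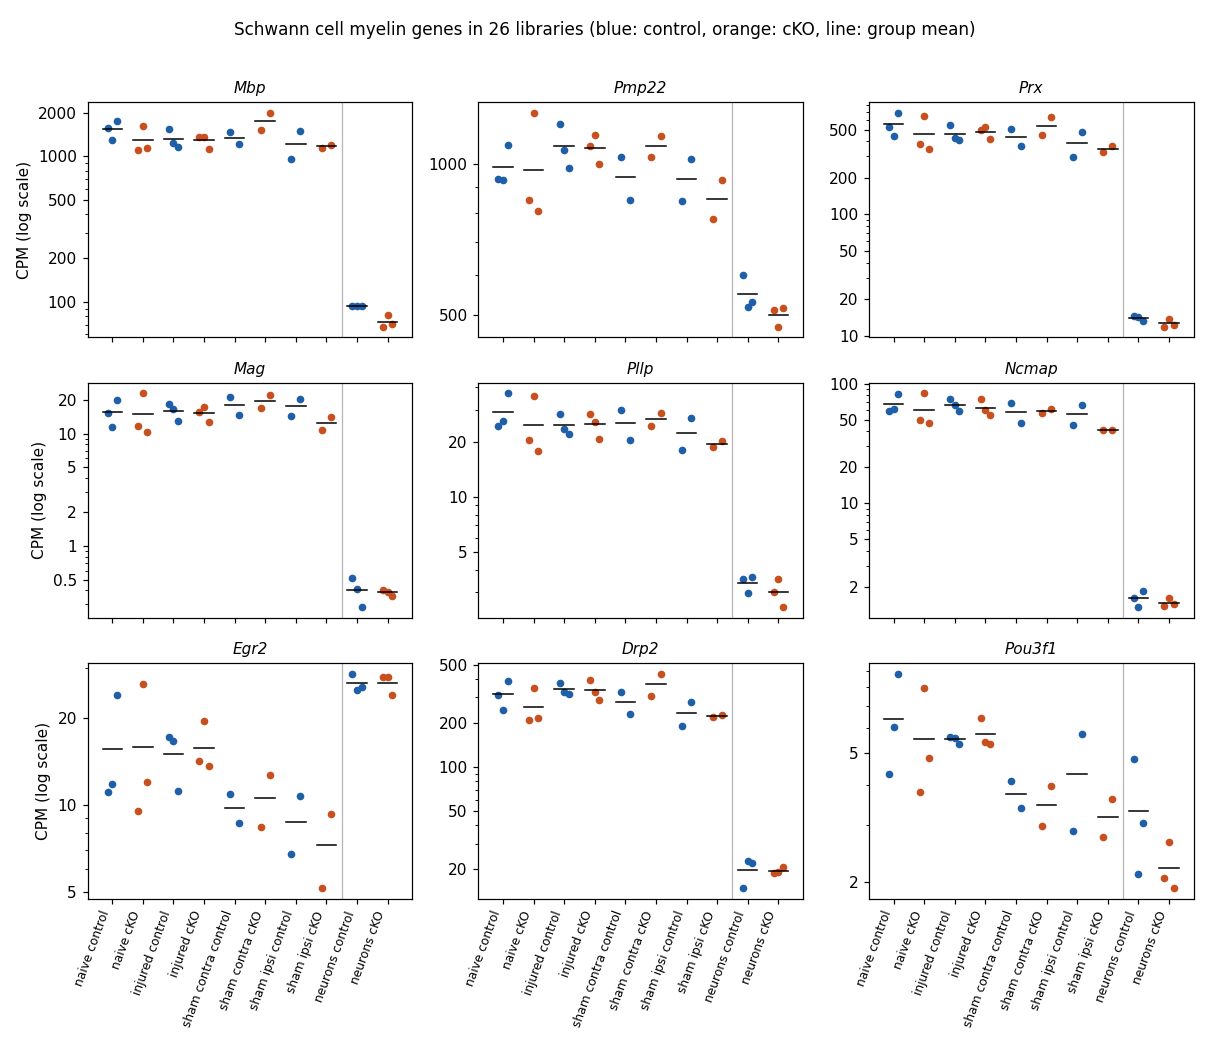
Level of each gene (CPM, log scale) in the 26 libraries by group, with 1 point per library and a line at the group mean; blue points are controls, orange points cKO, and the grey line separates ganglia from cultured neurons. For 7 genes the 6 neuron libraries lie below all 20 ganglion libraries, whereas *Egr2* in neurons (24.1 to 28.5 CPM) lies at the top of its ganglion range (5.16 to 26.3 CPM).

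Between genes, levels can be compared only per length. The deposited FPKM (fragments per kilobase, scaled to library size) divides by the whole gene span, introns included, for 8 of the 9 members, and on exon length the order changes. For *Prx* the implied length was 22827 bases, longer than its span of 20891 bases in the annotation used here, so its exon length may differ from that of the authors' gene model. On an FPKM scale computed with exon length, in naive control ganglia, *Pmp22* was the most abundant of the 9 (455 ± 40.9, SD, n = 3), followed by *Mbp* (197 ± 30.9), *Prx* (107 ± 24.0), *Drp2* (39.8 ± 9.08) and *Ncmap* (32.8 ± 5.89). *Pllp* had 15.1 ± 3.42, *Egr2* 5.00 ± 2.30, *Mag* 4.14 ± 1.14 and *Pou3f1* 1.79 ± 0.610 on the same scale. In the deposited FPKM, *Prx* (26.2 ± 5.86) stood above *Mbp* (15.1 ± 2.37), whose span of 110492 bases is mostly intron. On that scale *Egr2* (2.53) and *Pou3f1* (1.79) stood above *Pllp* (1.47) and *Mag* (1.07), so their rank also depends on the length used.

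Cultured neurons were compared with naive ganglia of the same genotype. In both genotypes 8 of the 9 members were lower in the cultured neurons and *Egr2* was not, while 41.6% of all genes tested were called lower in controls and 40.1% in cKO. The median log2 change of the members was -3.94 in controls and -3.71 in cKO, beside medians of -0.02 and 0.01 over all genes. Neurons and ganglia stand in separate deposited tables, so culture, table and mouse cohort cannot be told apart. In bulk libraries, fewer Schwann cells and less transcript per Schwann cell cannot be told apart either.

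*Mbp* had 1563, 1292 and 1749 CPM in the 3 naive control libraries and 94.4, 94.4 and 93.8 CPM in the 3 control neuron libraries. In cKO it had 1110, 1612 and 1144 CPM in naive ganglia and 67.7, 81.3 and 70.5 CPM in neurons. The libraries of ganglia and neurons did not overlap in either genotype, and *Mbp* was 16.1-fold lower in control neurons (log2 change -4.01, SE 0.158, adjusted p = 2.56e-10, edgeR quasi-likelihood test) and 17.5-fold lower in cKO neurons (adjusted p = 2.11e-10). *Prx* had 523.3, 443.7 and 686.5 CPM in naive controls against 14.5, 14.3 and 13.3 CPM in control neurons, and was 39.0-fold lower (SE of the log2 change 0.252, adjusted p = 1.33e-09). Its partner *Drp2* had 310.0, 244.8 and 386.3 CPM in naive controls against 14.98, 22.92 and 22.03 CPM in control neurons, a 15.4-fold difference (SE 0.234, adjusted p = 9.20e-09). All naive libraries of both genes again lay above all neuron libraries.

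*Mag* and *Ncmap* had few counts in culture. *Mag* had 15.2, 11.5 and 19.99 CPM in naive controls against 0.515, 0.411 and 0.283 CPM in control neurons, the latter from 13 to 36 counts per library. *Ncmap* had 59.3, 60.8 and 81.9 CPM against 1.63, 1.347 and 1.83 CPM, the latter from 41 to 118 counts per library. The fitted folds of the 2 genes were 39.8 (SE of the log2 change 0.364, adjusted p = 3.39e-08) and 42.2 (SE 0.250, adjusted p = 1e-09) in controls and 38.4 and 40.4 in cKO. Of all genes tested, 3.10% had a lower log2 change than *Ncmap* in controls, and 3.22% a lower one than *Mag*. *Pllp* ranged from 17.9 to 36.9 CPM over the ganglia and from 2.49 to 3.66 CPM over the neurons, and was 8.54-fold lower in control neurons (SE 0.262, adjusted p = 2.55e-07).

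*Pmp22* kept more of its level in culture than the other structural genes. It had 935.6, 932.0 and 1095 CPM in naive controls and 599.7, 519.0 and 530.6 CPM in control neurons, and in cKO 847.7, 1267 and 805.5 CPM against 512.4, 473.6 and 515.5 CPM. The libraries did not overlap, and the difference was 1.78-fold in controls (log2 change -0.83, SE 0.143, adjusted p = 0.000158) and 1.94-fold in cKO (adjusted p = 5.07e-05). The 95% intervals of the log2 change, -1.15 to -0.52 for *Pmp22* and -4.36 to -3.67 for *Mbp* in controls, lie apart. A difference between these genes was not tested.

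Of the 2 regulators, only *Pou3f1* passed the test. *Egr2* had 11.1, 11.8 and 24.2 CPM in naive controls and 28.5, 25.0 and 25.8 CPM in control neurons. In cKO it had 9.54, 26.3 and 12.01 CPM in naive ganglia and 27.8, 27.8 and 24.1 CPM in neurons. All control neuron libraries lay above the naive controls, but naive cKO replicate 2 overlapped with the cKO neurons. The log2 difference was 0.76 (SE 0.337, adjusted p = 0.0524) in controls and 0.74 (SE 0.335, adjusted p = 0.0571) in cKO, which missed the threshold of 0.05. Both values rest on 1 high naive library: without control replicate 3 the difference was 1.18 (adjusted p = 0.00667), and without cKO replicate 2 it was 1.26 (adjusted p = 0.00153). *Egr2* was also called higher in both genotypes when no filter on low counts was used (adjusted p = 0.0239 and 0.0255), and over all alternatives its adjusted p was 0.00667 to 0.202 in controls and 0.00153 to 0.249 in cKO.

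*Pou3f1* had 4.33, 6.04 and 8.79 CPM in naive controls against 4.80, 2.12 and 3.05 CPM in control neurons, and these overlapped. In cKO it had 3.79, 7.94 and 4.82 CPM against 2.07, 2.66 and 1.92 CPM, with no overlap. It was 2.48-fold lower in cKO neurons (log2 change -1.31, SE 0.344, adjusted p = 0.00366) and 1.97-fold lower in control neurons (log2 change -0.98, adjusted p = 0.0188). The call in controls was lost without naive control replicate 3 (log2 change -0.71, adjusted p = 0.1) and without neuron control replicate 2 (-0.71, adjusted p = 0.0853).

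**Figure D2:**
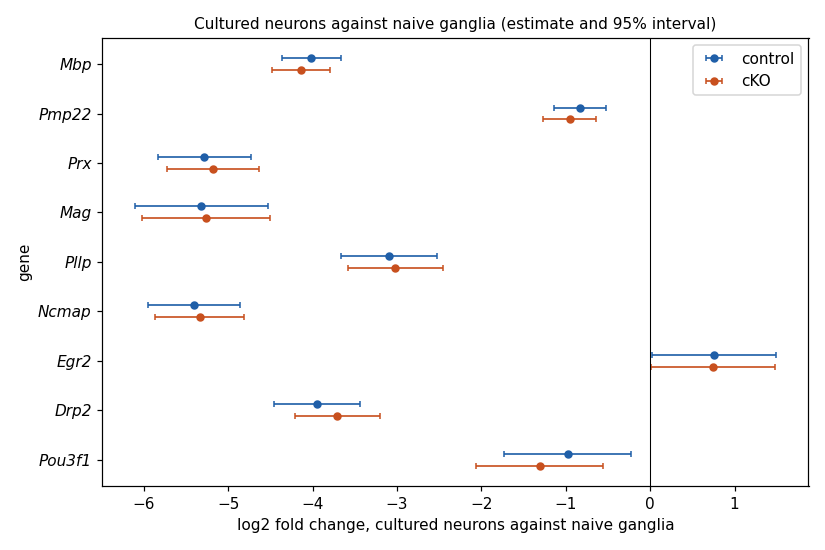
Log2 fold change of each gene between cultured neurons and naive ganglia (points) with its 95% interval (bars), in controls (blue) and cKO (orange). Intervals of 6 structural genes lie at or below -2.46, those of *Pmp22* and *Pou3f1* lie between -2.06 and -0.23, and those of *Egr2* lie just above 0.

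The other lists of the programme are read against all genes of this fit, of which 41.7% were called higher and 41.6% lower in controls and 42.0% and 40.1% in cKO. Of 16 other myelin protein genes, 12 were lower and 3 higher in cultured neurons of controls, and the same counts held in cKO. *Pmp2*, a fatty acid carrier of myelin, had 23.6 ± 4.38 CPM (SD, n = 3) in naive controls and 1 to 14 counts per control neuron library, and *Gjc3*, a gap junction gene of glia, fell by 4.38 on the log2 scale. *Arpc1b*, *Cd9* and *Cryab* rose by 1.33, 1.36 and 2.08. Of 16 myelin lipid genes, 9 were higher and 7 lower in each genotype, which is near the share over all genes, and their median log2 change in controls was 0.485. Among the lower genes were *Ugt8a* and *Gal3st1*, enzymes that make galactolipids, with log2 changes in controls of -4.92 and -2.19, and *Aspa* (-4.38), which frees acetate from N-acetylaspartate. *Fasn* and *Sqle*, of fatty acid and cholesterol synthesis, which all cells use, were higher by 1.54 and 0.80.

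Of 20 genes that drive Schwann cell myelination, 10 were higher and 7 lower in cultured neurons of each genotype, again near the share over all genes (median log2 change 0.309 in controls). *Sox10*, the partner of EGR2, rose from 80.9 ± 5.51 to 196.2 ± 24.8 CPM in controls and from 79.9 ± 26.6 to 191.1 ± 29.0 CPM in cKO (SD, n = 3; adjusted p = 4.1e-05 and 4.97e-05 in the edgeR fit). *Lgi4*, a secreted protein of Schwann cells that promotes myelination, fell by 2.59 in controls, and *Adam22*, its receptor, fell by 1.56, while *Hdac1* and *Hdac2* rose by 2.21 and 1.38. Of 18 genes of immature or repair Schwann cells, 16 passed the filter, of which 10 were higher and 5 lower (median log2 change 1.34 in controls). *Gdnf*, *Jun*, *Runx2* and *Notch1* rose by 6.87, 2.17, 1.98 and 2.90 in controls, and *Id4*, *Ngfr*, *Bdnf* and *Shh* fell by 3.40, 1.15, 0.88 and 1.16. Of 18 junction and adhesion genes, 6 were higher and 7 lower in controls, among them *Lama2*, a laminin chain of the Schwann cell basal lamina, at 2.52 and the adhesion gene *Cadm2* at -2.10. These lists were chosen with earlier results of the same data known.

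The label of the neuron libraries was checked against markers, beside the shares of all genes given above. Of 8 neuronal markers, 6 were lower in cultured neurons than in naive ganglia, among them *Tubb3* (log2 change -1.38 in controls) and *Snap25* (-1.41), and *Uchl1* and *Prph* were higher. Their sum was 3916 to 4531 CPM in neurons and 6304 to 7557 CPM in naive and injured ganglia. The 5 endothelial markers were all higher, with sums of 862.7 to 1303 CPM against 87.9 to 148.0 CPM. The 6 general Schwann cell markers summed to 498.4 to 623.0 CPM in neurons against 834.8 to 1026 CPM, with 2 markers higher (*Sox10*, *Foxd3*) and 4 lower. The part of cell composition in the myelin gene values was not tested.

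The crush comparison asks whether the ganglia, which lie upstream of the lesion, changed their myelin transcripts within 1 day. None of the 9 members was called in controls, where 21.6% of the 21261 genes tested were, or in cKO, where 18.6% were. DESeq2 also called 0 in either genotype, and 0 of 9 reached an unadjusted p under 0.05 in the edgeR quasi-likelihood test. The injured and naive libraries of each genotype overlapped for all 9 members, whereas they lay apart for 38.4% of genes in controls and 36.3% in cKO. Over both genotypes together, 34.1% of genes were called and again 0 members. The median log2 change of the members was -0.04, beside -0.02 over all genes.

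Of the structural genes, *Mbp* had 1536, 1242 and 1160 CPM in injured controls against 1292 to 1749 CPM in naive controls, and 1370, 1370 and 1126 CPM in injured cKO against 1110 to 1612 CPM. Its log2 change over both genotypes was -0.12 (95% interval -0.36 to 0.12). *Prx* changed by -0.11 (-0.45 to 0.23), *Mag* by 0.02 (-0.40 to 0.44), *Pllp* by -0.11 (-0.47 to 0.25) and *Ncmap* by 0.02 (-0.29 to 0.33). *Pmp22* had 1203, 1070 and 984.3 CPM in injured controls and 1090, 1145 and 999.6 CPM in injured cKO, with a log2 change of 0.14 (-0.09 to 0.36). *Drp2* had 375.5, 328.2 and 316.3 CPM in injured controls and 394.2, 325.5 and 285.2 CPM in injured cKO, with a log2 change of 0.24 (-0.06 to 0.55). In cKO, naive replicate 2 lay above all 3 injured libraries for *Pmp22* and above 2 of 3 for *Drp2*, while the other naive libraries lay below all 3. Without that library *Pmp22* (0.35, adjusted p = 0.0309) and *Drp2* (0.62, adjusted p = 0.0316) were called higher in injured cKO by edgeR, and *Pmp22* (0.24, adjusted p = 0.0152) and *Drp2* (0.37, adjusted p = 0.0306) over both genotypes.

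The regulators were not called either. *Egr2* had 17.2, 16.7 and 11.2 CPM in injured controls and 14.2, 19.6 and 13.6 CPM in injured cKO, all within the naive range of 9.54 to 26.3 CPM, and a log2 change of -0.04 (95% interval -0.62 to 0.53). *Pou3f1* had 5.34 to 6.42 CPM in the 6 injured libraries and a log2 change of -0.08 (-0.49 to 0.32). Over both genotypes the intervals of all 9 members lay between -0.62 and 0.55. No difference in the injury change between genotypes was called for any member (interaction test, 0 of 9 called, 0 of 9 with an unadjusted p under 0.05, and 0.0% of all genes called). DESeq2 called 0 of 9 there too, and 627 genes had an unadjusted p under 0.05 in edgeR. The intervals of that difference ran from -1.11 to 1.18, so sizeable differences lay within them.

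**Figure D3:**
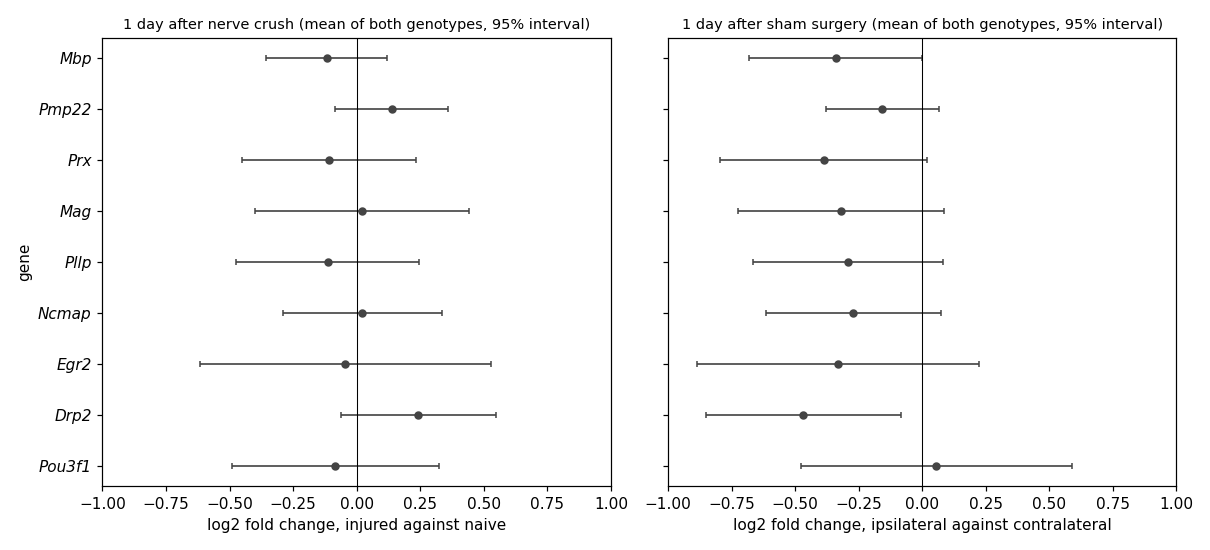
Log2 fold change of each gene (points) with its 95% interval (bars), after nerve crush against naive (left) and on the ipsilateral against the contralateral side after sham surgery (right), as the mean of both genotypes. After crush all intervals include 0; after sham surgery 8 of 9 points lie below 0, and only the intervals of *Mbp* and *Drp2* do not reach above 0.

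In the other lists of the programme, the share of genes called over both genotypes was below the 34.1% of all genes for the drivers (5 of 20), other myelin protein genes (2 of 16), lipid genes (4 of 16) and junction and adhesion genes (4 of 18). *Lgi4* rose by 0.53, *Zeb2*, a repressor that Schwann cells need to myelinate, by 0.27, *Tead1* by 0.47 and *Adgrg6*, a receptor that starts myelination, by 0.29, while *Nrg1*, the neuregulin ligand, fell by 0.40. Of 16 other myelin protein genes, *Arpc1b* rose by 0.23 and *Pmp2* fell by 0.79, and of 16 lipid genes *Sqle* and *Fasn* rose and *Elovl6* and *Gal3st1* fell, by 0.32 or less on the log2 scale. Of 18 junction and adhesion genes, *Mpp5* and *Cntn2* rose and *Utrn* and *Cldn5* fell. Of 15 tested genes of immature or repair Schwann cells, 7 rose and 2 fell, where 18.4% of all genes were called higher and 15.7% lower. *Jun*, the factor that drives the repair state, rose from 96.8 ± 1.93 to 370.8 ± 32.7 CPM in controls (SD, n = 3), and *Bdnf*, *Gfap* and *Shh* rose by 1.62, 2.23 and 0.66 over both genotypes. The 2 that fell were *Id4*, by 0.21, and the growth factor *Btc*, by 0.58. Neurons and satellite glia of the ganglion use several of these genes too, and the cell that changed was not tested.

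The cKO genotype was compared with control in each of 5 settings, and no member was called in any by edgeR. Among all genes tested, 0.00941% were called in naive and again in injured ganglia, 0.00451% in ipsilateral sham ganglia, and 0.0% in contralateral sham ganglia and in neurons. At an unadjusted p under 0.05, the count was 0 of 9 members in all ganglion settings and 1 of 9 (*Mbp*) in neurons, beside 2.72% to 7.59% of all genes in the ganglion settings and 8.0% in neurons. In naive ganglia, 8 of 9 log2 differences were below 0 (median -0.21, range -0.27 to 0.03, beside a median of 0.00 over all genes), and all 9 overlapped between genotypes, against 12.1% of genes that did not. In injured ganglia the differences were -0.08 to 0.06, and all 9 again overlapped (8.73% of genes did not). The 95% intervals of all members lay within -0.78 to 0.83 in naive and -0.75 to 0.87 in injured ganglia.

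In cultured neurons *Mbp* was lower in all 3 cKO libraries (67.7, 81.3 and 70.5 CPM) than in all 3 controls (94.4, 94.4 and 93.8 CPM). The log2 difference was -0.37 (SE 0.0785, unadjusted p = 0.00146), and it missed the threshold after adjustment over all genes (adjusted p = 0.360, edgeR). DESeq2 called it (adjusted p = 0.0213), as it did 163 genes in this comparison, and over all alternatives run the adjusted p of *Mbp* was 0.0213 to 0.85. *Pmp22* was also separate, at 473.6 to 515.5 CPM in cKO and 519.0 to 599.7 CPM in controls, with a log2 difference of -0.14 (SE 0.0896, adjusted p = 0.676). Groups without overlap and with cKO lower were found for 2 of 9 members, beside 7.67% of all genes. With 3 libraries in each group, the other 7 members overlapped. The general Schwann cell markers summed to 498.4 to 623.0 CPM in cKO and 525.9 to 547.7 CPM in control neurons.

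In sham ganglia of the ipsilateral side, *Mag* (10.7 and 14.2 CPM in cKO, 14.4 and 20.5 CPM in controls) and *Ncmap* (41.2 and 41.1 CPM in cKO, 44.6 and 66.0 CPM in controls) did not overlap between genotypes, with cKO lower. This was 2 of 9 members, beside 22.3% of all genes in these groups of 2. On the contralateral side *Mbp* (1520 and 1995 CPM in cKO, 1482 and 1218 CPM in controls) and *Pmp22* (1035 and 1140 CPM, 1035 and 849.4 CPM, the 2 nearest differing by less than the rounding) did not overlap, with cKO higher, for 2 of 9 members beside 20.1% of all genes. None of these passed the test (smallest adjusted p 0.770 ipsilateral and 0.880 contralateral).

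The sham groups allow a comparison of ipsilateral and contralateral ganglia 1 day after surgery without a nerve crush. The SE and p given here come from a fit that does not pair the sides by mouse. None of the 9 members was called between sides by edgeR or by DESeq2, and 0.00451% of all genes were called by edgeR. The members lay to 1 side: 8 of 9 were lower in ipsilateral ganglia, with a median log2 change of -0.32, beside 0.01 over all genes, 47.1% of which were lower. *Drp2* had 190.6, 280.2, 218.8 and 226.1 CPM on the ipsilateral side and 326.8, 232.2, 305.5 and 432.9 CPM on the contralateral side, in control mice 1 and 2 and cKO mice 1 and 2. Its log2 change was -0.47 (SE 0.165, unadjusted p = 0.0230, adjusted p = 0.580), and with the mouse as a block it was -0.46 (adjusted p = 0.491). *Mbp* (-0.34, unadjusted p = 0.0499, adjusted p = 0.660) was the only other member under 0.05 before adjustment, where 7.56% of all genes were, and *Prx* had -0.39 (adjusted p = 0.683). With no filter on low counts, *Drp2* (adjusted p = 0.00492), *Mbp* (0.0321) and *Prx* (0.0373) were called in edgeR, a fit that called 381 genes in place of 1, and over all alternatives the adjusted p of each reached 1.0.

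Mouse by mouse, all 9 members were lower on the ipsilateral side in 3 of the 4 mice and all 9 were higher in the other one. The median ratio of ipsilateral to contralateral CPM was 0.647 in control mouse 1, 0.728 in cKO mouse 1 and 0.668 in cKO mouse 2, but 1.29 in control mouse 2. Over 18554 genes, the share lower on the ipsilateral side was 52.7%, 60.7%, 57.6% and 49.7% in these mice. This set is smaller than the 22160 genes of the sham fit, so these shares are not those of the fit given above. The 6 general Schwann cell markers moved with the members in all 4 mice. Their sum was 754.6 CPM ipsilateral and 848.0 CPM contralateral in control mouse 1, 910.2 and 789.8 in control mouse 2, 706.0 and 794.8 in cKO mouse 1, and 747.2 and 864.6 in cKO mouse 2. Muscle markers did not follow the members: the 4 summed to 18.4 CPM ipsilateral and 66.9 CPM contralateral in control mouse 1, 2.99 and 276.0 in control mouse 2, 17.2 and 352.3 in cKO mouse 1, and 1603 and 22.8 in cKO mouse 2. The side with more muscle transcript was thus the contralateral one in 3 mice and the ipsilateral one in cKO mouse 2. The part of cell composition in the result was not tested.

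**Figure D4:**
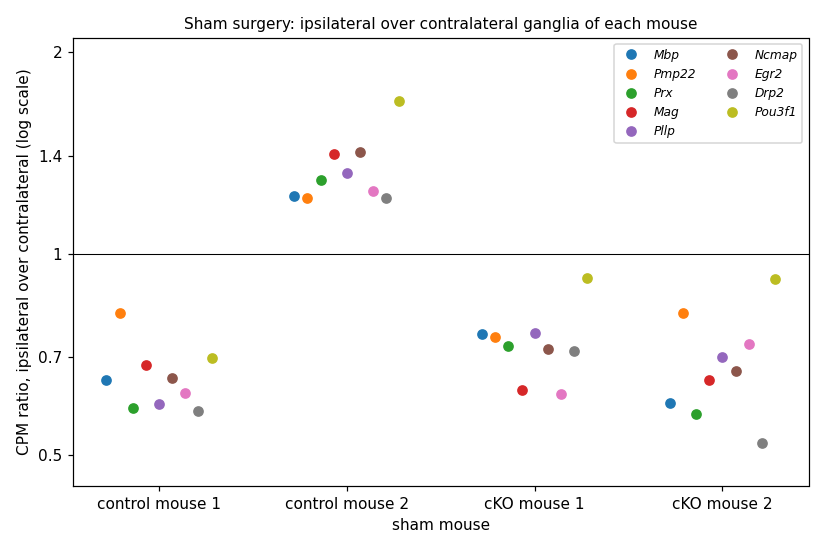
Ratio of ipsilateral to contralateral CPM (log scale) of each gene in the 4 sham mice, with 1 point per gene. All 9 points lie below 1 in control mouse 1, cKO mouse 1 and cKO mouse 2, and all 9 lie above 1 in control mouse 2.

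The 9 genes shared their differences between replicates. In 6 of the 8 ganglion groups, the same library had the highest level of all 9 members, and this occurred in neither neuron group. In naive controls that library was replicate 3, which was highest for 9 of 9 members and for 27.9% of all genes at 1 CPM or more. In naive cKO it was replicate 2, highest for 9 of 9 members and 39.1% of genes. The members lay a median of 0.34 and 0.57 above their group mean (log2 CPM) in those 2 libraries, with *Egr2* deviating most. Replicate 1 of the injured controls was highest for 9 of 9 members and 34.1% of genes. In injured cKO, no library was highest for all, but replicate 3 was lowest for all 9, and for 27.9% of genes. Replicate 3 of the injured controls was also lowest for all 9, and for 35.9% of genes.

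The same held in 3 of the 4 sham groups, where 1 of the 2 libraries was higher for all 9 members (and for 44.5% to 55.0% of genes), and for 8 of 9 members in ipsilateral cKO ganglia. In naive and injured ganglia the members also varied more between replicates than most genes did: their biological coefficient of variation in the naive and injured fit was 0.125 (*Pmp22*) to 0.311 (*Egr2*), above that of 76.9% to 96.5% of genes, whose median was 0.0812. In the sham fit they had 0.103 (*Pmp22*) to 0.250 (*Egr2*), above 33.2% to 84.4% of genes, and *Pmp22* lay below the median of 0.133. In the neuron fit the members had 0.0807 to 0.259, beside a median of 0.128. The other lists shared this in part. In naive control replicate 3, the genes that were highest there were 13 of 16 other myelin protein genes, 16 of 20 drivers, 12 of 18 junction and adhesion genes and 9 of 16 lipid genes, but 2 of 15 repair and immature genes and 2 of 6 markers of non-myelinating Schwann cells. In naive cKO replicate 2 these counts were 14, 14, 10, 13, 10 and 1 of the same lists. The 6 general Schwann cell markers summed to 982.8 CPM in naive control replicate 3, against 869.8 and 928.7 CPM in the other 2, and to 1026 CPM in naive cKO replicate 2, against 834.8 and 877.5 CPM. Markers of other cell types were high in the same libraries. Fibroblast markers were highest for 5 of 5 in naive control replicate 3 (summed 934.8 CPM, against 765.8 and 592.3) and for 4 of 5 in naive cKO replicate 2. In the latter, endothelial markers were highest for 5 of 5 (148.0 CPM, against 90.5 and 87.9) and macrophage markers for 6 of 6. Satellite glia markers were highest for 6 of 7 in naive cKO replicate 2 (2116 CPM, against 1818 and 1921), but for 2 of 7 in naive control replicate 3. Neuronal markers were highest for 0 of 8 in both libraries. Naive control replicate 3 is also the one naive control with the genotype Ahr fl/fl. Injured control replicate 3, the one injured control of that genotype, was lowest for all 9 members. The part of tissue composition or genotype in this was not tested.

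**Figure D5:**
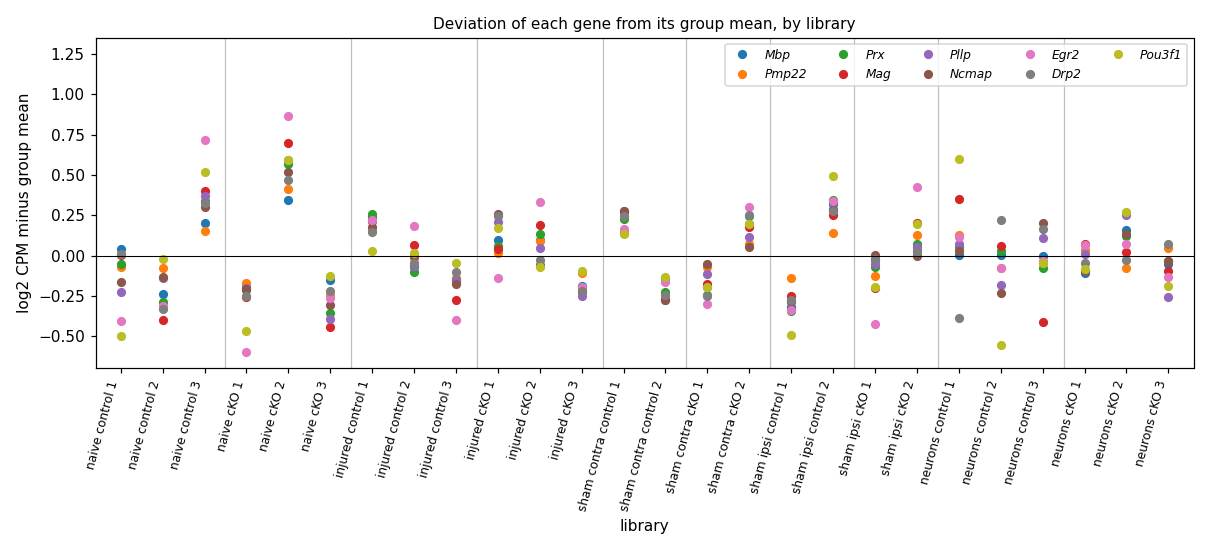
Deviation of each gene from its group mean (log2 CPM) in each of the 26 libraries, grouped by the grey lines; colours are the 9 genes. In naive control replicate 3 and naive cKO replicate 2 all 9 points lie above 0, whereas in the neuron libraries points lie on both sides.

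Across libraries, *Egr2* parted from the other members once neurons were included. Over all 26 libraries, Pearson's r between a member and the mean of the other 8 (z-scored log2 CPM) was 0.95 to 0.98 for the 7 structural genes, 0.76 for *Pou3f1* and -0.53 for *Egr2*. Over the 20 ganglion libraries it was 0.77 to 0.96 for the structural genes, 0.70 for *Pou3f1* and 0.81 for *Egr2*. These r describe libraries that share table, depth and tissue, and carry no test. Among 14654 genes with a mean of at least 1 CPM, those most like the mean of the 9 members over 26 libraries were *Sbspon* (r = 0.987), *Cntf* (0.986), *Arhgap19* (0.984), *Limch1* (0.981) and *Gatm* (0.980). Over the 20 ganglion libraries they were *Limch1* (0.953), *Cldn19* (0.943), *Sbspon* (0.927), *Fa2h* (0.925) and *Plekhb1* (0.923). *Cntf* encodes a growth factor held in Schwann cells, *Cldn19* a tight junction protein of peripheral myelin, and *Fa2h* the enzyme that makes 2-hydroxy fatty acids for myelin lipids.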

How the data were processed

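RNA of 26 libraries was prepared with a stranded messenger RNA kit, per the labels' protocols. The submitters' processing notes name Trim Galore, HISAT2, featureCounts and the mouse build mm10, without versions or a strand setting, and the annotation release is not given in the sources used here. The deposited values are whole-number counts per gene, made by the authors in 2 tables (naive and injured ganglia, then sham ganglia and neurons), and FPKM that the authors computed from them. The deposited FPKM divides by the gene span with introns: for 99.24% of 24760 genes with at least 100 counts the implied length lay within 0.1% of the span. Of 55401 gene IDs, 55141 matched a symbol in GENCODE M21.

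Counts were tested with edgeR 4.0.16 (R 4.3.3), by the two-sided quasi-likelihood test with TMM scaling and the filterByExpr filter (count minimum 10, total 15), in 4 fits: naive and injured ganglia (21261 genes), neurons (23295), sham ganglia (22160), and neurons with naive ganglia (22185). All 9 members passed the filter in each. A gene was called at a Benjamini-Hochberg adjusted p under 0.05 over all genes of the fit. Every p and adjusted p is from this test unless DESeq2 1.42.0 is named, and p-values measure the spread between the samples of a group, each 1 mouse or 1 culture as labelled. Levels are CPM, and log2 CPM used a prior count of 2. Intervals are 95%. On simulated counts, 96% to 100% of 2-fold changes were recovered. Of 1.5-fold changes, 80% were recovered for the crush in controls, 39% for neuron genotypes, 51% for sham sides and 56% for culture in controls. Each simulated fit gave all genes the same biological coefficient of variation. In naive and injured ganglia it lay below the members' 0.125 to 0.311, so recovery for members may be lower. The alternatives were DESeq2, other scalings and filters, a sex covariate, blocks and leaving out single libraries. Some genes of the lists are not reported here by name. Members and gene lists were chosen with earlier results of these data known. The named genes were the members, of each other list the called genes with the smallest p (at most 4 in each direction), the 5 genes most like the members' mean, and *Ahr*, *Thy1* and *Sox10*.

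Replicate numbers of naive, injured and neuron groups only name samples (correlations of same-numbered libraries -0.479 to 0.468). Sides of a sham mouse are paired per the labels (correlation 0.243 in controls and -0.189 in cKO).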

Additional observations from a re-analysis of the deposited data

Results flagged for a closer look

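The genotype difference of *Mbp* had opposite signs in 2 kinds of sample, with groups that did not overlap either time. In cultured neurons it was -0.37 on the log2 scale, with all 3 cKO libraries lower, and in contralateral sham ganglia it was 0.38, with both cKO libraries higher. *Pmp22* did the same, with -0.14 in neurons and 0.20 in contralateral sham ganglia. Groups without overlap were found for 7.67% of all genes in neurons with cKO lower and for 20.1% in contralateral ganglia with cKO higher. In the ipsilateral ganglia of the same sham mice, and in naive and injured ganglia, both genes overlapped between genotypes and had differences below 0, so the contrast is with 1 side of the sham mice. The difference between the 2 settings was not tested, and 3 of these 4 differences had an unadjusted p above 0.05 in edgeR. The neuron and sham groups also differ in sex and in tissue.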

How the results depend on the processing

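The replicate block changed no member's call: 8 of 9 members stayed called in each culture comparison and 0 elsewhere. Genes called moved from 2 to 1 with the block in naive genotypes, from 0 to 5 in neurons, from 1 to 4 between sham sides (block of mouse) and from 1 to 3 in ipsilateral genotypes. With a sex covariate and without the 2 libraries whose sex label and transcripts differ (an alternative chosen after seeing the data), the crush in cKO called 1414 and 2400 genes in place of 3962, and the injured genotypes 0 and 0 in place of 2. With the groups compared only, the naive genotypes called 0. DESeq2 called 163 genes in neuron genotypes (1 member, *Mbp*), 200 between sham sides, 153 in ipsilateral and 31 in contralateral genotypes. With no filter these were 27, 381 (3 members), 626 and 59.

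With single libraries left out, genes called ranged from 1 to 2 in naive genotypes, 0 to 15 in injured genotypes (15 without cKO replicate 1), 0 to 15 in neurons (15 without control replicate 1), 1 to 98 in ipsilateral genotypes and 1 to 85 between sham sides (both without ipsilateral cKO replicate 1), and 0 to 8 for the interaction (8 without injured cKO replicate 1). Members called ranged from 0 to 2 after crush in cKO and over both genotypes (2 without naive cKO replicate 2). Uncalled crush changes crossed 0: *Egr2* -0.18 to 0.22, *Mag* -0.091 to 0.23, *Ncmap* -0.0603 to 0.16, *Pllp* -0.21 to 0.0537, *Pou3f1* -0.195 to 0.0806 and *Prx* -0.20 to 0.05. Between sham sides *Pou3f1* ran from -0.23 to 0.26. Of the member changes given in the text, 237 of 243 values under other settings and 290 of 320 without 1 library kept direction and side of the threshold. Of the rest, 22 reversed, 12 became called and 2 lost the call. The causes were not tested. Depth limits *Mag* in neurons, with as few as 13 counts.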

Other observations

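Other glial and vascular markers in culture are read against all genes of that fit. Of these, 41.7% were called higher and 41.6% lower in controls, and 42.0% and 40.1% in cKO. Of 7 satellite glia markers, 4 were lower and 2 higher in cultured neurons of each genotype, which is near those shares. In controls *Kcnj10*, the potassium channel of satellite glia, fell by 4.05 on the log2 scale and *Fabp7* had a log2 change of -4.455, while the endothelin receptor *Ednrb* rose by 2.18 and *Glul*, glutamine synthetase, by 0.50 (edgeR, adjusted p under the threshold for each). All 5 endothelial markers rose, among them *Pecam1* by 3.40, *Kdr* by 3.34 and *Cdh5* by 3.74. Of 5 fibroblast markers, 4 were lower and 1 higher, and of 4 muscle markers, 4 were lower in controls and 2 in cKO. Of 6 macrophage markers, 4 were lower and 2 higher in controls and 2 and 2 in cKO, while their sum was higher in neurons (174.2 to 193.2 CPM) than in naive and injured ganglia (110.7 to 145.6 CPM). Of 6 non-myelinating Schwann cell markers, 3 were lower and 3 higher, again near the shares over all genes.

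After crush, 4 of those 6 non-myelinating Schwann cell markers rose over both genotypes and none fell, where 18.4% of all genes were called higher. By genotype, 3 were called in controls and 1 in cKO, and 3 of the 6 (*Ngfr*, *Gfap* and *Ncam1*) are also on the list of immature or repair genes. By edgeR, none of the 6 general Schwann cell markers was called. *Gfap*, on the list of non-myelinating cells and also used by satellite glia, rose by 2.23.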
